A study of Rattus norvegicus with 294 samples.

Results

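Osteocytes of the third lumbar vertebra were compared 2 weeks after a weekly anti-sclerostin antibody had been stopped at its lower dose. The members were the arrays labelled osteocyte and day 197, and there were 10 among the 97 osteocyte arrays of the series: 5 from vehicle rats and 5 from rats that had received 3 mg/kg. All rats were female Sprague-Dawley rats that had been ovariectomized at 6 months of age and left without treatment for 8 weeks, so the vehicle rats also lacked ovarian hormones. They then received weekly subcutaneous vehicle (a Tween 20, sucrose and sodium acetate solution) or the antibody, called Scl-Ab, up to day 183, and were killed on day 197, 14 days later. All groups also received calcein, a fluorescent bone label, before sacrifice. Osteocytes were enriched by laser capture from vertebral cryosections, 1.5 ng of RNA was amplified, and the product was read on Affymetrix rat expression arrays. The comparison asks which osteocyte transcripts differ from vehicle once exposure to the antibody is being withdrawn.

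Osteocytes are osteoblast descendants that lie buried in mineralized matrix and are joined by long cell processes. They secrete sclerostin, the product of Sost, which binds the Wnt co-receptors Lrp5 and Lrp6 and so holds back Wnt signalling and bone formation by osteoblasts on the surface. An antibody against sclerostin lifts this brake, and bone formation is known to fall again with continued dosing and after withdrawal. Type I collagen, a trimer of the Col1a1 and Col1a2 chains, is the bulk of the organic bone matrix, into which minor fibrillar collagens, small proteoglycans and osteocalcin are built.

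The osteocyte label was checked against marker genes. Mepe and Dmp1, matrix proteins typical of osteocytes, stood at a median percentile of 99.7 and 99.5 among all probe sets of these 10 arrays. On the osteoblast arrays of the same day they stood at 62.7 and 77.6, and on the lining cell arrays at 64.4 and 68.7. Sost and Phex, also osteocyte genes, gave weak signals here, at median percentiles of 27.3 and 33.8. The matrix genes Col1a1 and Bglap stood at 98.9 and 99.5 on the osteocyte arrays. They stood at 95.8 and 96.3 on the osteoblast arrays and at 91.6 and 92.5 on the lining cell arrays. Markers of other cells also gave signal. The osteoclast genes Ctsk and Acp5 stood at or above percentile 99.4 on every one of the 10 osteocyte arrays. Their lowest percentiles were 99 and 94.3 on the osteoblast arrays and 99.6 and 97.1 on the lining cell arrays. On the same list of 12 osteoclast markers, Clcn7 and Tnfrsf11a lay at or below the array median on all 10 arrays. A score over 31 erythroid, granulocyte and B-lineage markers averaged 8.09 in vehicle and 8.01 off 3 mg/kg (log2, exact permutation p = 0.405). In such bulk captures, fewer cells of a type and less RNA per cell cannot be told apart. Tissue came from 5 rats per group per day, but the labels name no rat, so captures of the 3 cell types may share rats. The SEs and p-values of limma rest on a spread between arrays that is pooled over all groups of a fit. They do not measure the spread of the 10 day 197 arrays alone. Arrays are named here by number in the order of deposit, which carries no meaning.

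Across the 11859 genes tested, 130 were lower and 2 were higher off 3 mg/kg than in vehicle, or 1.1% and 0.0169% of the genes tested. A gene was called where its adjusted p was under 0.05 in limma's moderated test with Benjamini-Hochberg adjustment, and differences are given as log2 fold changes of the RMA signal. At an unadjusted p under 0.05, 1223 genes were lower and 393 higher, and the median over all genes was -0.04. All 130 called falls had 5 of 5 treated arrays below the vehicle mean, and 39 exceeded 1 on the log2 scale. The 130 were called on these same arrays, so such counts are no separate support for the calls. For 87 of the 130 the treated and vehicle arrays did not overlap. Over all genes tested, 4.15% had all 5 treated arrays below all 5 vehicle arrays and 1.9% had them above. The count rested partly on single arrays: it was 45 without treated array 2, 74 without treated array 3, 62 without vehicle array 2 and 79 without vehicle array 3. Against the vehicle groups of all 4 days after dosing had ended, an alternative added after seeing the data, 28 genes were lower and 111 higher, and 20 of these were among the 132.

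**Figure D1:**
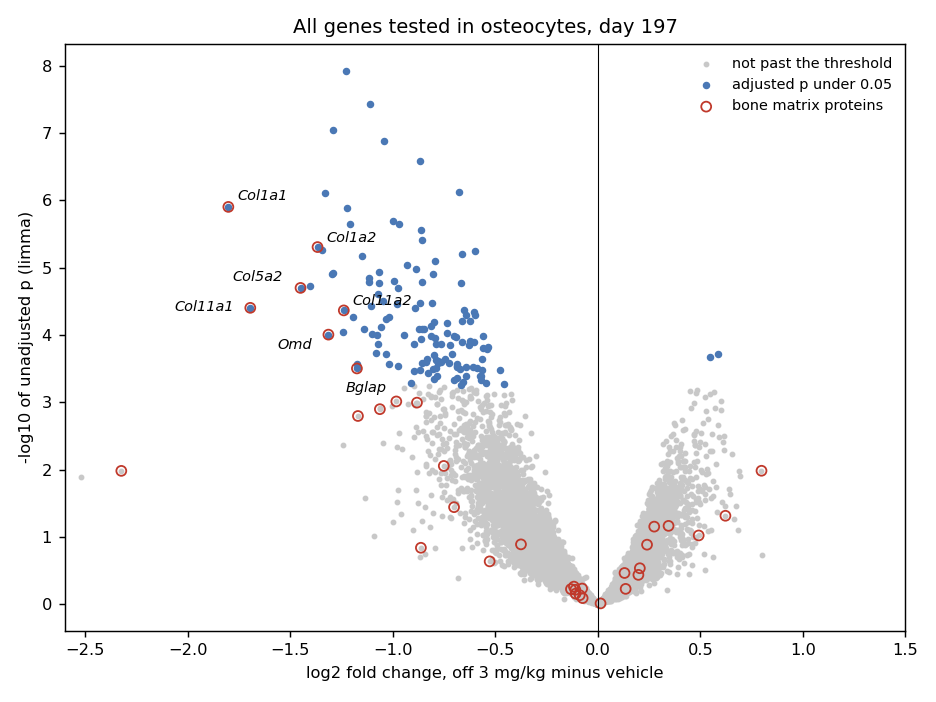
Each point is 1 of 11859 genes, with the log2 fold change off 3 mg/kg against vehicle on the x axis and the -log10 of limma's unadjusted p on the y axis. Genes past the adjusted threshold are blue and the 35 tested bone matrix genes are ringed in red; 7 of these rings lie on blue points, all to the left of 0.

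The largest of the 130 called falls was that of the type I collagen chain Col1a1. Its log2 levels in the 5 vehicle arrays were 11.51, 9.76, 11.72, 9.74 and 11.00, and off 3 mg/kg they were 9.32, 8.23, 9.70, 8.05 and 9.40. The highest treated array lay just under the lowest vehicle array, so the groups did not overlap, although each group spread over more than 1 log2 unit. Col1a1 fell by 1.80 (SE 0.35, adjusted p = 0.00171), a 3.49-fold difference, and its second probe set gave -1.66. The partner chain Col1a2 measured 12.63, 11.38, 12.79, 11.64 and 12.63 in vehicle and 11.27, 10.00, 11.18, 10.17 and 11.61 off the antibody. It fell by 1.37 (SE 0.28, adjusted p = 0.00389), with 1 treated array inside the vehicle range and -1.44 at its second probe set. Both chains passed the threshold under each of the 9 other settings tried and on leaving out each of the 10 arrays in turn.

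Of the other fibrillar collagens tested, several of which sit inside collagen fibrils and help to set their diameter, Col11a1, Col5a2 and Col11a2 fell and Col5a1, Col24a1 and Col3a1 did not pass. Col11a1 measured 6.56, 4.73, 6.28, 4.99 and 5.56 in vehicle and 4.22, 3.15, 4.29, 3.61 and 4.39 off 3 mg/kg, with no overlap, and fell by 1.70 (SE 0.39, adjusted p = 0.011). Its dimmer probe sets gave -0.04 and 0.27, and with the mean of probe sets Col11a1 was at -0.49 (adjusted p = 0.142). Col5a2 measured 10.22, 8.76, 9.94, 8.88 and 9.68 in vehicle and 7.95, 7.46, 8.56, 7.75 and 8.51 off 3 mg/kg, again with no overlap. It fell by 1.45 (SE 0.32, adjusted p = 0.00683), and its second probe set gave -1.28. Col11a2, named after its values were seen, fell by 1.24 (SE 0.29, adjusted p = 0.0114), while Col5a1 was at -0.75 (adjusted p = 0.184), Col24a1 at -0.38 (adjusted p = 0.511) and Col3a1 at -0.07 (adjusted p = 0.949). Col11a1 and Col11a2 are also cartilage genes, and the mean level of 11 chondrocyte markers was 4.64 in vehicle array 1 against at most 3.14 in the other 9 arrays. Col2a1 there measured 6.19 against 3.24 to 4.46 elsewhere. Without that array Col11a1 was at -1.46 (adjusted p = 0.0598), its call also ended without vehicle array 3 (adjusted p = 0.0543) or treated array 2 (adjusted p = 0.0723), and the part of cartilage in the result was not tested further. The Col5a2 call ended without treated array 2 (adjusted p = 0.0532).

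The small proteoglycan osteomodulin and the mineral-binding protein osteocalcin were the other matrix genes that fell. Omd measured 5.47, 4.99, 5.72, 3.87 and 5.86 in vehicle and 3.90, 2.92, 4.33, 3.69 and 4.50 off the antibody. Vehicle array 4 lay among the treated arrays, so the groups overlapped, and Omd fell by 1.31 (SE 0.32, adjusted p = 0.0177). Bglap, which encodes osteocalcin, measured 11.95, 10.81, 12.02, 10.63 and 11.73 in vehicle and 10.10, 10.26, 10.28, 9.46 and 11.15 off 3 mg/kg. Treated array 5 lay inside the vehicle range, and Bglap fell by 1.18 (SE 0.31, adjusted p = 0.0333). These calls were less steady than those of type I collagen. The Omd call ended without treated array 2 (adjusted p = 0.139) or vehicle arrays 1 (0.0509), 3 (0.0792) or 5 (0.073). The Bglap call ended without any of 7 arrays, namely treated arrays 1 to 4 and vehicle arrays 1, 3 and 5, at adjusted p of 0.068 to 0.143. With the compared groups only, the Omd call (adjusted p = 0.0599) and the Bglap call (adjusted p = 0.0583) ended too.

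**Figure D2:**
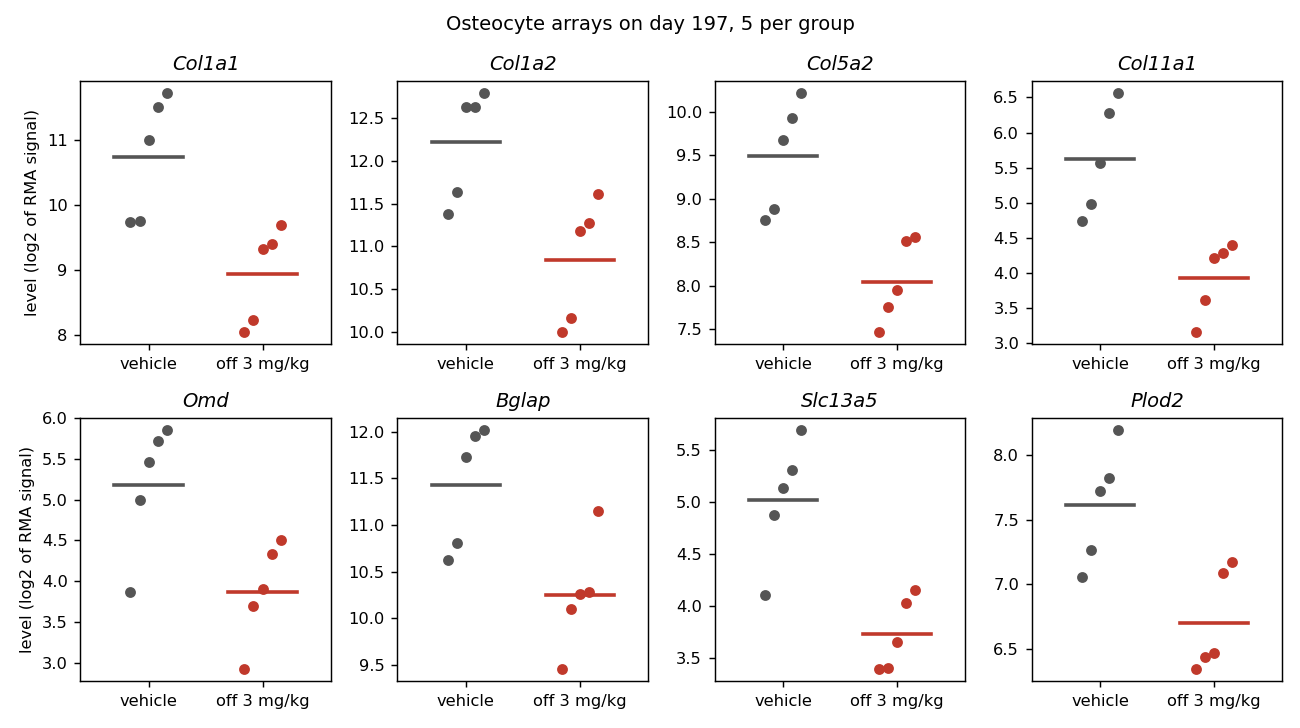
Log2 RMA levels of 8 genes on the y axes in the 5 vehicle arrays (grey) and the 5 arrays off 3 mg/kg (red), 1 point per array, with the group mean as a bar. Col1a1, Col5a2 and Col11a1 do not overlap between groups; in the other 5 panels the highest treated array reaches into the vehicle range.

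Of 35 bone matrix genes tested, 7 fell (Col1a1, Col11a1, Col5a2, Col1a2, Omd, Col11a2 and Bglap), none rose and 28 did not pass. The falls were 20% of the list, beside 1.1% of all genes tested. The list's median was -0.13 beside -0.04 over all genes. Of the 35, 3 lay wholly below vehicle and 1 wholly above, beside 4.15% and 1.9% of all genes, so the list did not move as a block. Sparc, Dcn and Lum were at -1.06, -0.98 and -0.88 with adjusted p of 0.0735, 0.0648 and 0.0659. Mgp, a calcification inhibitor abundant in cartilage, had the most negative estimate of the list, -2.32, with an adjusted p of 0.197 and treated arrays from 4.57 to 8.73. Other bone matrix genes gave no call: Ibsp, bone sialoprotein, was at -0.11 (adjusted p = 0.868), Spp1, osteopontin, at 0.62 (adjusted p = 0.362) and Postn at 0.01 (adjusted p = 0.994). The number of the 7 matrix falls was 3 without treated array 2, without vehicle array 1 or without vehicle array 3, and it was 10 without treated array 5 or without vehicle array 4. Arrays 2 and 4 lay lowest within both groups for Col1a1, Col1a2, Col5a2 and Col11a1, so the calls of these genes are not independent of each other.

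The bases before the RefSeq start are shown for Col1a2, Bglap and Slc13a5, a matrix chain, a mineral-binding protein and a citrate carrier that fell, so that sequence stands beside the values. They come from the RefSeq promoter table of build GRCr8, which held 8 of the 10 genes that fell on the lists of bone matrix, collagen enzyme and osteoblast differentiation genes, and 106 of all 130. The windows are 250 bases before the start of Col1a2 at chr4:33518307-33518556 (plus strand), of Bglap at chr2:176137319-176137568 (minus strand) and of Slc13a5 at chr10:57388849-57389098 (minus strand), written 5′ to 3′ on the gene's strand. Capitals mark the TATA box letters TATAAA, the CCAAT box (which reads ATTGG when it lies on the other strand) and the RUNX core letters ACCACA, all searched on both strands, with no letters shared between motifs here.
Col1a2: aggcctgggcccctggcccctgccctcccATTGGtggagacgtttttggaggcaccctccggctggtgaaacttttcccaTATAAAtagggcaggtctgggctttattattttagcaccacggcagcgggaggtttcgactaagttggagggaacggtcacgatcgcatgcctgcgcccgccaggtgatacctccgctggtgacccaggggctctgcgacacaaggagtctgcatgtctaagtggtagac
Bglap: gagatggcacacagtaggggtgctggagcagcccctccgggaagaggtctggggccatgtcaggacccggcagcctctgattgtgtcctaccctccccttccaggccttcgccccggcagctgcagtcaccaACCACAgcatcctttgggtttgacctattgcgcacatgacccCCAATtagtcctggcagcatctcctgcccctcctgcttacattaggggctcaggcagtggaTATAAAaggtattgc
Slc13a5: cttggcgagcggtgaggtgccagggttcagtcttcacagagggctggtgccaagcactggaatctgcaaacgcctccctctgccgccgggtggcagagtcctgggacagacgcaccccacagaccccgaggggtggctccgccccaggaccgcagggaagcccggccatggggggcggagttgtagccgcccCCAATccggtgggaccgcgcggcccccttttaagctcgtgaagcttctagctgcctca
Bglap held each of the 3 motifs, Col1a2 held TATAAA and CCAAT, and Slc13a5 held CCAAT. In the same window TATAAA occurred in 12.9%, CCAAT in 34% and ACCACA in 14.5% of all 33469 promoters of the table. Among the 8 list genes they occurred in 2, 4 and 1, and among the 106 genes in 7.55%, 37.7% and 9.43%. These matches are letters in a window and no measure of binding.

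Among enzymes that modify and crosslink collagen, 1 of 21 tested fell (4.76%, beside 1.1% of all genes) and none rose. This was Plod2, the lysyl hydroxylase that acts on collagen telopeptides, with levels of 7.82, 7.06, 7.72, 7.27 and 8.20 in vehicle and 6.44, 6.47, 7.09, 6.35 and 7.17 off 3 mg/kg. It fell by 0.91 (SE 0.25, adjusted p = 0.0469), 2 treated arrays reached the vehicle range, and the call ended under most alternatives and without any of 6 arrays (treated arrays 1, 2 and 4 and vehicle arrays 1, 3 and 5, adjusted p of 0.105 to 0.151). The list's median was -0.26. The crosslinking oxidase Lox was at -0.41 (adjusted p = 0.508) and the collagen chaperone Serpinh1 at -0.50 (adjusted p = 0.315).

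Of 20 osteoblast differentiation genes, 2 fell (10%, beside 1.1% of all genes), none rose, and the median was -0.44. Slc13a5, a sodium-coupled citrate transporter of bone-forming cells, measured 5.70, 4.11, 4.87, 5.30 and 5.13 in vehicle and 3.66, 3.39, 3.40, 4.03 and 4.15 off 3 mg/kg. Vehicle array 2 alone reached the treated range, and Slc13a5 fell by 1.30 (SE 0.28, adjusted p = 0.00572), a call that no left-out array ended but that quantile normalization did (-1.12, adjusted p = 0.0512). Cdh11, the osteoblast cadherin, measured 6.71, 6.06, 6.18, 5.30 and 6.48 in vehicle and 5.05, 4.67, 5.19, 5.12 and 5.55 off 3 mg/kg. It fell by 1.03 (SE 0.26, adjusted p = 0.0254) with overlap at vehicle array 4. Its dimmer probe sets gave 0.21 and 0.25, with the mean of probe sets it was at -0.19 (adjusted p = 0.47), and its call ended without any of 7 arrays (treated arrays 1, 2 and 3 and vehicle arrays 1, 2, 3 and 5, adjusted p of 0.0501 to 0.131). Smpd3, a sphingomyelinase needed for mineralization, was at -0.95 (adjusted p = 0.14), and Alpl, tissue alkaline phosphatase, at 0.20 (adjusted p = 0.776).

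The osteocyte's own genes gave no call in 18 tested, with a median of -0.18. Sost, which encodes the antibody's target, measured 2.56, 2.68, 2.97, 2.41 and 2.62 in vehicle and 2.76, 2.94, 3.19, 2.86 and 2.94 off 3 mg/kg, a difference of 0.29 (SE 0.14, adjusted p = 0.333) between overlapping groups. Dmp1 was at -0.15 (SE 0.30, adjusted p = 0.875) and Mepe at 0.56 (SE 0.43, adjusted p = 0.601), and in both the groups overlapped over most of their range. Against vehicle of all days after dosing Mepe passed, at 1.31 (adjusted p = 0.025), and Dmp1 did not (0.23, adjusted p = 0.858). Phex, a phosphate-regulating peptidase, was at -0.21 (adjusted p = 0.665). Fgf23, Dkk1, Axin2 and Tnfsf11 did not pass the filter on dim signals in the osteocyte arrays or had no probe set with a single gene, and were not tested. Among genes of osteocyte processes and cytoskeleton, 1 of 23 fell (4.35%, beside 1.1% of all genes), with a median of -0.12. It was Ablim3, an actin-binding LIM protein, with 4.84, 4.09, 4.92, 4.11 and 5.19 in vehicle and 3.53, 3.17, 3.97, 2.92 and 4.16 off 3 mg/kg. Its difference was -1.08 (SE 0.26, adjusted p = 0.0177), its dimmer probe set gave 0.02, and the call ended with the mean of probe sets (-0.53, adjusted p = 0.0974) and without any of 4 arrays (treated arrays 2 and 4 and vehicle arrays 3 and 5, adjusted p of 0.0661 to 0.0928). Of 19 phosphate and mineral genes 1 fell (5.26%, beside 1.1% of all genes), Slc13a5 again, and the median was 0.03.

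Wnt genes gave no call either. None of 13 antagonist and feedback genes, 15 ligands and receptors and 16 target genes passed, with medians of -0.15, -0.01 and -0.05. Among feedback genes Nkd2 was at 0.10 (adjusted p = 0.836) and the sclerostin partner Lrp4 at -0.27 (adjusted p = 0.602). Among target genes Ccn4 was at -0.32 (adjusted p = 0.625), Twist1 at -0.29 (adjusted p = 0.728) and Myc at -0.05 (adjusted p = 0.947). Ctnnb1, which encodes beta-catenin and is on none of these lists, was named after its values were seen: it fell by 0.57 (SE 0.15, adjusted p = 0.034), with vehicle and treated means of 11.29 and 10.72 and no overlap. Its treated mean lay inside the osteocyte vehicle means of the other days, 9.755 to 11.27, and the day 197 vehicle mean lay above them all. The Ctnnb1 call was not followed through the alternatives. Of 13 osteoclast regulators none passed, and the decoy receptor Tnfrsf11b was at -0.24 (adjusted p = 0.596).

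None of 12 osteoclast, 12 erythroid, 13 granulocyte, 14 macrophage, 12 endothelial, 11 adipocyte or 9 chondrocyte markers tested was called. Of 6 B-lineage markers 1 fell (16.7%, beside 1.1% of all genes). It was the B cell surface protein Ms4a1 at -1.17 (SE 0.31, adjusted p = 0.031), from 5.80 to 7.01 in vehicle to 4.26 to 5.74 off 3 mg/kg. The mean of the 6 B-lineage markers was 5.76 to 6.32 in vehicle and 5.09 to 6.05 off 3 mg/kg (exact permutation p = 0.0476, adjusted p = 0.333 over 14 scores). The Ms4a1 call ended without any of 6 arrays (treated arrays 2, 4 and 5 and vehicle arrays 2, 3 and 4, adjusted p of 0.0561 to 0.158). Of 38 cell cycle genes 1 fell (2.63%, beside 1.1% of all genes), Ect2, an exchange factor of cytokinesis, at -1.21 (SE 0.24, adjusted p = 0.00219). The Ect2 call ended with the compared groups only (adjusted p = 0.0636) and against vehicle of all days after dosing (-0.55, adjusted p = 0.181). Of the lists not yet named, those of 14 T and natural killer cell, 9 megakaryocyte and 15 skeletal muscle markers held no called gene. Nor did those of TGF-beta and BMP genes, growth factors, matrix proteases, the secretory pathway, ribosome biogenesis, cytosolic ribosomal proteins, proteasome subunits, the respiratory chain, hypoxia and glycolysis, p53 targets, interferon responses, and immediate early and heat shock genes. Medians over these 12 lists, the largest being -0.22 for 33 secretory pathway genes and -0.19 for 30 proteasome subunits, stood beside -0.04 for all genes.

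Most of the 130 falls, 120 of them, were on none of the lists of matrix, collagen enzyme and differentiation genes. Among the largest were Etnk1, an ethanolamine kinase, at -1.41 (SE 0.31), Luc7l2, a U1-associated splicing factor, at -1.34 (SE 0.28), and Med14, a Mediator subunit, at -1.33 (SE 0.25). Ptbp3, a splicing regulator, was at -1.29, Ube2d2, a ubiquitin-conjugating enzyme, at -1.29 and the thioredoxin-like Txnl1 at -1.25, with adjusted p for the 6 genes from 0.000354 to 0.017. Med14 measured 5.30, 5.63, 5.35, 5.35 and 5.12 in vehicle and 4.39, 3.74, 3.63, 4.26 and 4.10 off 3 mg/kg, 2 tight groups far apart. Ube2d2 measured 5.24, 5.73, 5.20, 5.44 and 4.93 in vehicle and 4.40, 3.43, 4.06, 4.08 and 4.14 off 3 mg/kg, also without overlap. Dimmer probe sets of Etnk1, Med14, Ptbp3 and Txnl1 gave -0.38 to 0.11 and those of Ube2d2 -0.32 and -0.01, so the falls were read by the brightest probe set of each gene. The Txnl1 call ended without treated array 2 (adjusted p = 0.11), treated array 3 (0.0548) or vehicle array 2 (0.0638).

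The 2 rises were small. Klhl11, a substrate adaptor of CUL3 ubiquitin ligases, measured 2.28, 2.53, 2.55, 2.68 and 2.55 in vehicle and 2.84, 3.50, 3.14, 3.10 and 2.95 off 3 mg/kg, a rise of 0.59 (SE 0.15, adjusted p = 0.0254). These are dim signals: every vehicle value, and those of treated arrays 1 and 5, lay under the median of their own array. The array medians ran from 2.89 to 2.99. Mier2, a partner of histone deacetylases, measured 4.29, 4.20, 4.23, 4.22 and 4.23 in vehicle and 4.66, 4.76, 4.79, 4.93 and 4.77 off 3 mg/kg, a rise of 0.55 (SE 0.14, adjusted p = 0.028). Neither gene overlapped between groups. The Klhl11 call ended without any of 5 arrays (treated arrays 2 and 3 and vehicle arrays 1 to 3, adjusted p of 0.0539 to 0.164), and the Mier2 call without any of 6 (treated arrays 2 to 5 and vehicle arrays 2 and 3, adjusted p of 0.054 to 0.0746). Both calls also ended with signal range as covariate (Klhl11 0.39, adjusted p = 0.312; Mier2 0.45, adjusted p = 0.228) and with quantile normalization (adjusted p of 0.0663 and 0.0789). The Klhl11 call ended against vehicle of all days after dosing (0.35, adjusted p = 0.163). The dimmer probe set of Mier2 gave 0.06, and with the mean of probe sets Mier2 was at 0.30 (adjusted p = 0.143). Cc2d1a, Nalcn and N4bp3, the next rises by p, were at 0.48, 0.45 and 0.56 with adjusted p of 0.055, 0.0561 and 0.0561.

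The arrays themselves differed on day 197. Signal range, the 90th minus the 50th percentile of an array's log2 values, was 3.31 to 3.43 in vehicle and 3.07 to 3.19 off 3 mg/kg, without overlap (exact permutation p = 0.00794, the smallest that 5 against 5 can give, adjusted p = 0.111 over 14 scores). The day 197 vehicle mean of 3.36 was the highest of the 8 osteocyte vehicle groups, of which the lowest, on day 183, was 2.64. With signal range in the model, 20 genes were lower and 1 higher, and 20 of the 21 were among the 132. Col1a1 was then at -1.71 (adjusted p = 0.012), Col1a2 at -1.35 (adjusted p = 0.0131) and Slc13a5 at -1.36 (adjusted p = 0.0131), while Col11a1 (-1.52), Col5a2 (-1.23), Omd (-1.04), Bglap (-1.05) and Plod2 (-0.75) were somewhat smaller and no longer passed (adjusted p of 0.0914 to 0.308). Ube2d2 was at -0.95 (adjusted p = 0.00383) and Med14 at -0.90 (adjusted p = 0.012), and Etnk1 (-0.83), Luc7l2 (-0.97), Ptbp3 (-0.86) and Txnl1 (-0.73) did not pass (adjusted p of 0.0658 to 0.235). Ect2 passed (-0.99, adjusted p = 0.0348), and Cdh11 (-0.66), Ablim3 (-0.98) and Ms4a1 (-1.01) did not (adjusted p of 0.135 to 0.325). Gng10, a fixed gene that fell by 0.81 without the covariate (SE 0.18, adjusted p = 0.0102), did not pass with it (-0.58, adjusted p = 0.161). Quantile normalization ended the calls of Col11a1, Omd, Bglap, Slc13a5, Plod2, Cdh11, Ablim3, Txnl1 and Ms4a1 (adjusted p of 0.0512 to 0.212). Signal range and treatment cannot be told apart by group on this day, and the part of the one in the other was not tested further.

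**Figure D3:**
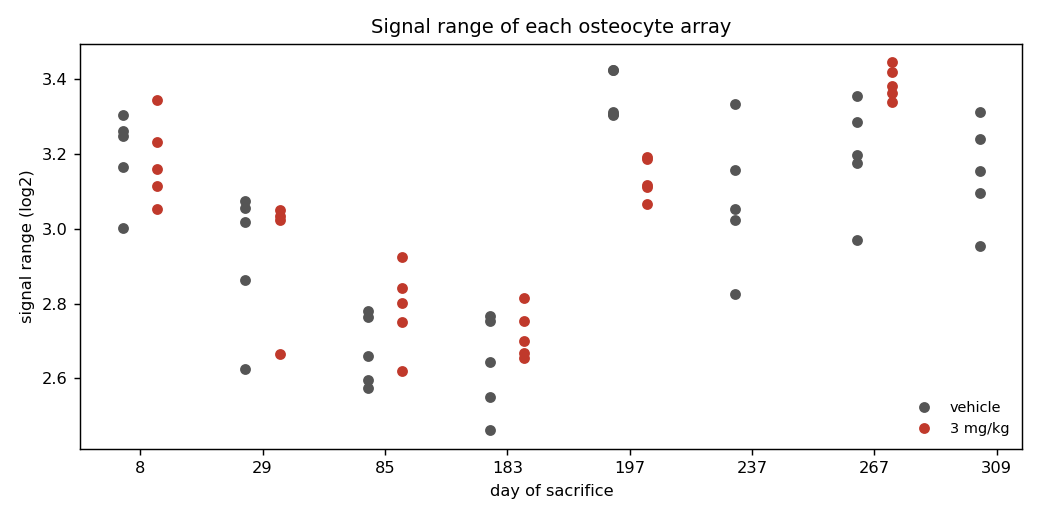
Signal range (y axis, log2 units) of each vehicle (grey) and 3 mg/kg (red) osteocyte array by day of sacrifice (x axis), 1 point per array. On day 197 the vehicle arrays lie at 3.31 to 3.43 and the arrays off 3 mg/kg at 3.07 to 3.19, and the arrays of day 183 lie lower than both.

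The osteocyte vehicle groups of the other 7 days gave a second reference for the levels, given here as a description. For 7 of the 10 list genes that fell (Col1a1, Col11a1, Col1a2, Omd, Slc13a5, Col11a2 and Bglap) the mean off 3 mg/kg was lower than every other vehicle mean. Col1a1 averaged 8.94 (SD 0.75, n = 5) off 3 mg/kg, whereas the 8 vehicle means ran from 10.59 to 11.94, and 2 of 40 vehicle arrays lay under its highest treated array. Slc13a5 averaged 3.73 (SD 0.35, n = 5) against vehicle means of 4.48 to 5.20, with 4 of 40 vehicle arrays under its highest treated array. Among the 120 other falls the mean off 3 mg/kg was lower than every other vehicle mean for 5. The day 197 vehicle mean topped every other vehicle mean for 91 of the 120 and 3 of the 10 (Col5a2, Omd and Cdh11). All these falls were called on the same day 197 arrays for a vehicle mean above the treated mean. Their ranks are not independent of that choice, and the ranks of uncalled genes were not counted. The day 197 vehicle group also had the highest mean signal range of the 8 vehicle groups, and its part in these ranks was not tested. Med14 off 3 mg/kg averaged 4.02 (SD 0.33, n = 5), inside the range of vehicle means from 2.99 to 5.35, of which day 197 itself was the highest. Luc7l2 and Etnk1 off 3 mg/kg averaged 4.46 and 5.69, inside vehicle ranges of 3.80 to 5.80 and 4.22 to 7.09 that also peaked on day 197. Against vehicle of all 4 days after dosing Col1a1 was at -1.87 (adjusted p = 1.97e-06), Col1a2 at -1.31 (adjusted p = 6.47e-05) and Slc13a5 at -1.04 (adjusted p = 0.00254). Etnk1, Luc7l2, Med14, Ptbp3 and Txnl1 then had adjusted p of 0.136 to 0.34, Ube2d2 was at -0.70 (adjusted p = 0.0175), and Bglap (0.173), Col5a2 (0.0558), Plod2 (0.299) and Cdh11 (0.626) did not pass.

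**Figure D4:**
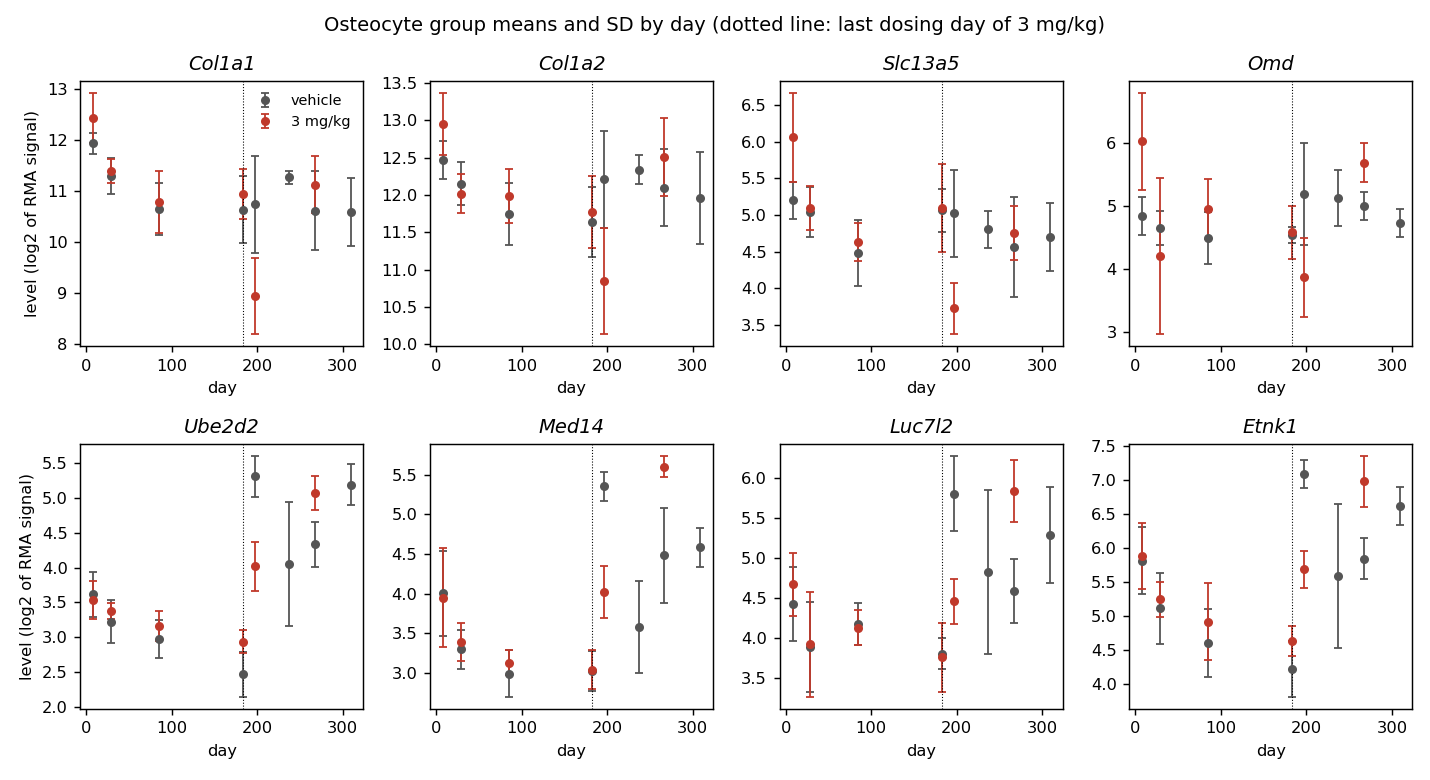
Log2 RMA levels (y axes, mean with SD as bars) of 8 genes in osteocyte vehicle groups (grey) and 3 mg/kg groups (red) by day (x axis), with the last dosing day as a dotted line. On day 197 the treated means of Col1a1, Col1a2, Slc13a5 and Omd lie under all vehicle means, while those of Ube2d2, Med14, Luc7l2 and Etnk1 lie inside the vehicle range.

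On day 183, the last day of dosing, osteocytes at 3 mg/kg showed no called gene against their vehicle (0% of 11859 in either direction; 302 higher and 247 lower at an unadjusted p under 0.05). Col1a1 averaged 10.95 (SD 0.49, n = 5) at 3 mg/kg and 10.64 (SD 0.66, n = 5) in vehicle that day, a response of 0.31 (SE 0.35). The test of the change in response, day 197 minus day 183, called 11 genes lower and 5 higher (0.0928% and 0.0422% of genes tested). Col1a1 changed by -2.11 (SE 0.49, adjusted p = 0.0441), the only one of 35 bone matrix genes to pass, and Ube2d2 by -1.76, Pja2 by -1.45 and Serinc3 by -1.15. A second, dimmer probe set of Pja2 gave -0.15 against vehicle on day 197, beside -0.75 for the one used. Col11a1, Col5a2, Col11a2 and Col1a2 changed by -2.06, -1.76, -1.55 and -1.49 with adjusted p of 0.0724 to 0.0901, and Bglap by -1.19 (adjusted p = 0.257). Cxcr5 (1.09), Mapk9 (0.93), Lrp3 (0.90) and Cartpt (0.85) changed upward, each from a negative response on day 183 to a positive one on day 197, and none of these 8 responses was itself called. In day 197 vehicle, Mapk9, Lrp3 and Cartpt averaged 2.58, 2.73 and 2.52, under that group's mean array median of 2.91. Dimmer probe sets of Cxcr5, Mapk9 and Lrp3 gave -0.10, 0.13 and 0.08 on day 197. The count of 16 was 1 with signal range in the model and 3 without day 183 vehicle array 2 or 3. It was 4 to 10 without day 197 treated array 2, day 197 vehicle arrays 1, 2 or 3, day 183 treated arrays 1, 2 or 4 or day 183 vehicle array 5.

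By day 267, 12 weeks after dosing, no bone matrix gene was called lower than vehicle. Osteocytes off 3 mg/kg then had 410 genes higher and 21 lower than their vehicle (3.46% and 0.177%), 6 of 35 bone matrix genes were higher, and the list's median was 0.56 beside 0.04 over all genes. Col1a1 averaged 11.13 (SD 0.55, n = 5) and vehicle 10.62 (SD 0.77, n = 5), a response of 0.51 (SE 0.35, adjusted p = 0.497). Col5a2, at 1.10 (SE 0.32, adjusted p = 0.032), Lum, at 1.37 (adjusted p = 0.000485), and Col6a3, at 1.13 (adjusted p = 0.0087), were among the 6. The test of day 197 minus day 267 called 1101 genes lower and 193 higher (9.28% and 1.63%), among them 14 bone matrix genes lower. Col1a1 differed by -2.31 (SE 0.49, adjusted p = 0.000594), Col1a2 by -1.78 (adjusted p = 0.00119), Slc13a5 by -1.49 (adjusted p = 0.00745) and Bglap by -1.97 (adjusted p = 0.00131). The comparison with vehicle on day 197 and both tests of a change in response use the same day 197 arrays, so they are not independent of each other. The day 267 arrays also differed in signal range, from 2.97 to 3.35 in vehicle and from 3.34 to 3.44 off 3 mg/kg. With signal range in the model the difference of responses held 318 genes in place of 1294, and without day 267 vehicle array 5 it held 849.

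Osteoblasts and lining cells captured on the same day, whose arrays differ from those of osteocytes in the distribution of signals, gave larger estimates for Col1a1, Col1a2 and Bglap, but not for all matrix genes. Col1a1 was at -2.90 (SE 0.42) in osteoblasts and -2.57 (SE 0.42) in lining cells, Col1a2 at -2.48 and -2.33, and Bglap at -2.51 and -2.11. Lining cells gave smaller estimates than osteocytes for Col11a1 (-0.65), Col5a2 (-1.16), Col11a2 (-0.46) and Omd (-0.23), and osteoblasts for Col11a2 (-1.21) and Omd (-0.83). In osteoblasts 12 genes were lower and 2 higher (0.0959% and 0.016% of 12507), and in lining cells 3 were lower and none higher (0.024% and 0%); 8 and 3 of these were bone matrix genes. The difference between cell types did not pass for the matrix genes: osteocytes minus osteoblasts was 1.10 (SE 0.59, adjusted p = 0.551) for Col1a1, 1.12 (SE 0.54, adjusted p = 0.493) for Col1a2 and 1.34 (SE 0.56, adjusted p = 0.395) for Bglap. Slc13a5 was at -0.38 (SE 0.25) in osteoblasts and -0.30 (SE 0.25) in lining cells, and the difference of osteocytes from osteoblasts did not pass either (-0.91, SE 0.35, adjusted p = 0.33). Osteocytes minus osteoblasts called 18 genes, all lower in osteocytes (0.144% and 0%), led by Fn3krp (-1.88), Luc7l2 (-1.78), Ect2 (-1.65) and Zfand5 (-1.54), none of them a matrix gene. Dimmer probe sets of Zfand5 gave 0.04 to 0.18 in osteocytes on day 197, beside -0.97 for the one used. The difference of osteocytes from osteoblasts held 2 genes with signal range in the model. It held 1 gene without osteocyte treated array 2 or vehicle array 2, 4 without osteocyte treated array 5, and 6 to 9 without osteocyte treated array 3, osteocyte vehicle array 4, osteoblast treated array 2 or 4 or osteoblast vehicle array 3. It held 31 to 40 without osteocyte treated array 1, osteocyte vehicle array 1 or osteoblast vehicle array 2. Osteocytes minus lining cells called no gene by limma (0% in either direction, 220 lower and 115 higher at an unadjusted p under 0.05, and 30 called with array weights).

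**Figure D5:**
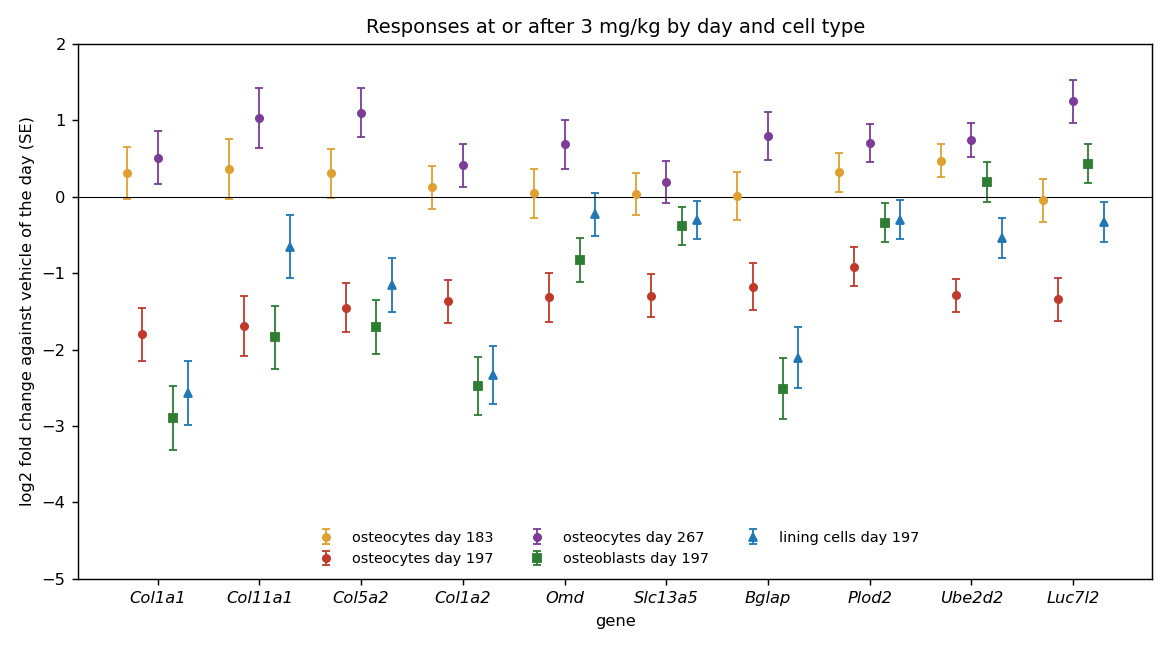
Log2 fold change against the vehicle of the same day (y axis, with SE as bars) for 10 genes (x axis) in osteocytes on days 183, 197 and 267 and in osteoblasts and lining cells on day 197. The osteocyte values of day 197 (red) lie under 0 for all 10 genes, from -1.80 for Col1a1 to -0.91 for Plod2, and those of day 267 (purple) lie above 0.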

How the data were processed

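RNA of laser-captured osteocytes, osteoblasts and lining cells was measured on Affymetrix rat expression arrays. The authors deposited 1 linear RMA intensity per probe set and array, made with affy 1.38.1, R 3.0.1, RMA and Affymetrix Expression Console, whose roles are not given, per the submitters' processing notes. No background or normalization step was repeated. Because the arrays had been normalized by the authors, a shift in overall RNA amount cannot be seen, and precision is limited by how many arrays a group has. Columns of no sample numbered 0.

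Intensities were taken to log2. Of 31042 probe sets, 20826 had 1 gene in the platform annotation, 436 had several and 9780 were not listed, and only the first were used. The brightest probe set stood for each of 14217 genes, and genes above the array median on at least 5 of the arrays in the fit were kept (11859 over the 97 osteocyte arrays, 12507 over all 294). A limma 3.58.1 fit in R 4.3.3 (statmod 1.5.0) with 1 mean per group gave each comparison with vehicle, and each difference of responses was a contrast in the same fit. Fits within osteocytes used the 97 arrays of 20 groups; fits between cell types used the 294 arrays of 60 groups. P-values were Benjamini-Hochberg adjusted over all genes of a fit and called under 0.05. Array scores were compared by 2-sided exact permutation tests. The method was tested on simulated data.

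Named genes were the 12 largest rises and falls past the threshold, up to 4 passing members of each list, the 4 largest called differences in each direction of the day and cell type comparisons, and fixed bone genes. The members and the 34 gene lists were chosen with earlier results of these data known. Alternatives were quantile normalization, no filter, the mean of probe sets, array weights, the compared groups alone, signal range or marrow score as covariate, a trended robust prior, each array left out and, added after seeing the data, vehicle of all days after dosing. The 50 mg/kg groups were not analysed here beyond their share in the fits.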

Additional observations from a re-analysis of the deposited data

Results flagged for a closer look

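In 6 of 146 groups of 5 arrays examined, 1 array stood far from the rest, where chance gives about 1 in 20 groups. Pja2 measured 5.85 in treated array 3, and the next was 5.36. In vehicle array 4, Cartpt measured 2.18 (next 2.56), C20h22orf15 4.29 (next 4.04) and Vps37b 4.80 (next 3.14). In vehicle array 1, Cdc42bpb measured 3.76 (next 3.42) and the mean of the chondrocyte markers was 4.64 (next 3.08).

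Responses differed between days by limma's contrast. Day 197 minus day 183 was 1.09 for Cxcr5, 0.93 for Mapk9, 0.90 for Lrp3 and 0.85 for Cartpt, and -2.11 for Col1a1, -1.76 for Ube2d2, -1.45 for Pja2 and -1.15 for Serinc3. Day 197 minus day 267 was 1.24 for Pxn, 1.21 for Strbp, 1.19 for Vps37b and 1.13 for Cntfr, and -2.73 for Cd48, -2.72 for Col11a1, -2.71 for Cdh11 and -2.68 for Slit2. Against vehicle on day 197, dimmer probe sets of Slit2 gave -0.28 and 0.08, beside -0.84 for the one used. Those of Vps37b gave 0.13 and 0.09, beside 0.69. Osteocytes minus osteoblasts on day 197 was -1.88 for Fn3krp, -1.78 for Luc7l2, -1.65 for Ect2 and -1.54 for Zfand5. What lies behind these differences was not tested.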

How the results depend on the processing

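The 132 genes called on day 197 became 42 (40 shared) with quantile normalization, 80 with the mean of probe sets, 1107 with array weights, 397 with the compared groups only and 21 with signal range as covariate. The 16 genes of the day 183 difference became 9 with no filter, 3 with quantile normalization, 9 with the mean of probe sets, 536 with array weights, 255 with the compared groups only and 1 with signal range. The 1294 of the day 267 difference became 550, 2879, 2349 and 318 with quantile normalization, array weights, the compared groups only and signal range. The 18 of osteocytes minus osteoblasts became 10, 9, 347, 302 and 2 with quantile normalization, the mean of probe sets, array weights, the compared groups only and signal range. The 0 of osteocytes minus lining cells became 30 with array weights. Leaving out each array in turn gave 45 to 144, 3 to 23, 849 to 1378, 1 to 40 and 0 for these 5 counts. Array weights and the compared groups alone change the estimate of the spread, and the cause of the other changes was not tested. Genes named only for a difference between days or cell types were not followed singly through these alternatives. Fn3krp, Cd48, Serinc3 and Zfand5, all called on day 197, were among them, and Col11a2 and Ctnnb1 were not followed either. Of the genes followed, none past the threshold on day 197 changed direction. Estimates near 0 that did not pass (Myc, Cdkn1a, Ibsp, Postn and Dmp1) did, reaching 0.23 for Myc with signal range and -0.54 for Postn without vehicle array 4. Single gene results numbered 764 on the same side of the threshold, 101 weaker and 28 stronger. No paired analysis was possible because the labels number no replicates. How signal over background limits detection was not tested.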
